A study of Mus musculus with 6 samples.

Results

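The *Pax*, *Lhx*, *Gata*, *Sox*, *Tbx*, *Irx*, *Msx* and *Nkx* genes and the sine oculis homeobox genes (*Six4* and *Six5*) belong to families of DNA-binding transcription factors that pattern the embryo. They were taken from the table of crypt expression by their symbols, as every gene named by 1 of these family names, or by *Dlx*, and a number. Of 18049 genes in the table, 44 had such a symbol. *Pax4*, *Pax6* and *Nkx2-2*, which act in the enteroendocrine lineage, were left out by this rule, and 41 genes remained. The mouse annotation holds 87 protein-coding genes under the same rule, and those outside the table were not analysed here. They include all 6 *Dlx* genes.

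Total RNA had been sequenced from colonic crypts of 3 control mice and 3 mice given GSK503, an inhibitor of the histone methyltransferase EZH2, with 1 library per mouse. All 6 were of the same genotype on C57BL/6J, a mouse model of Lynch syndrome. They carry an allele flanked by LoxP sites that is deleted by a Cre driven from the Villin promoter, so that the deletion is made in gut epithelium and not in stromal or immune cells. They also carry a knocked-in humanized *TgfβRII* sequence with a poly(A) microsatellite, and both groups were fed a Western-style diet from 8 weeks of age. GSK503 was given into the tail vein at 200 μg/kg in PBS and the controls received 20% captisol in PBS, both for 9 weeks. The age at sampling is not given in the sources used here.

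EZH2 is the catalytic subunit of Polycomb repressive complex 2 (PRC2), which places methyl groups on lysine 27 of histone H3. In adult tissues this mark covers many promoters of developmental transcription factors, most of them rich in CpG dinucleotides, and goes along with silence of the gene. Each lineage keeps only a small set of these factors active. In the intestine GATA factors act in epithelial identity and SOX9 and SOX4 in stem, progenitor and secretory cells.

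Levels are given as the deposited TMM-scaled signal, an estimated count scaled to a common library size (estimated CPM). Estimated totals lay between 108162011 and 135084510 counts per library, and 3 counts, taken as the floor, corresponded to between 0.0228 and 0.0271 CPM. Epithelial markers summed to between 10046 and 14632 CPM in the 6 libraries, against at most 122 CPM for any of the 9 lists of other cell types. GSK503 mouse 3 stood apart, with the highest sums of smooth muscle, fibroblast, endothelial and macrophage markers. *Xist* was at most 0.936 CPM in the control mice and at least 825 CPM in the GSK503-treated mice, and the Y-linked *Eif2s3y* was at least 51.3 CPM in the controls and 0 in all 3 treated mice. The groups thus differed in these sex-linked genes as well as in treatment, and treatment and sex cannot be told apart in any comparison here. Only *Tbx22* among the 41 genes is X-linked.

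Most of the 41 genes were silent or low in the crypts. By the mean over all 6 mice, 13 genes (31.7%) were silent (under 0.1 CPM), 17 (41.5%) were low (0.1 to under 1 CPM) and 11 (26.8%) were expressed (1 CPM or more). Over all 18049 genes the shares were 7.77%, 21.3% and 71.0%. The number of silent genes depended on the bound, and with bounds of 0.05 and 0.5 CPM 2 of the 41 (4.88%) were silent and 16 (39.02%) expressed, against 2.24% and 76.9% of all genes. The median of the 41 mean levels was 0.331 CPM, against 10.9 CPM over all genes.

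The *Hox* cluster genes, the best known developmental factors with positional expression along the gut, are given for comparison. Of 29 *Hox* genes, 22 (75.9%) were expressed and 1 (3.45%) was silent, with a median mean level of 5.39 CPM. These classes use counts that were not divided by gene length, and they describe the libraries without a test.

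The families were unevenly represented. All 3 *Lhx* genes and the single *Msx* gene, *Msx1*, were silent. Of 13 *Sox* genes, 7 were expressed, 1 was low and 5 were silent. Of 9 *Tbx* genes 1 was expressed, and of 5 *Gata* genes 1 was expressed and 4 were low. The 3 *Nkx* genes and *Irx4* were low.

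**Figure D1:**
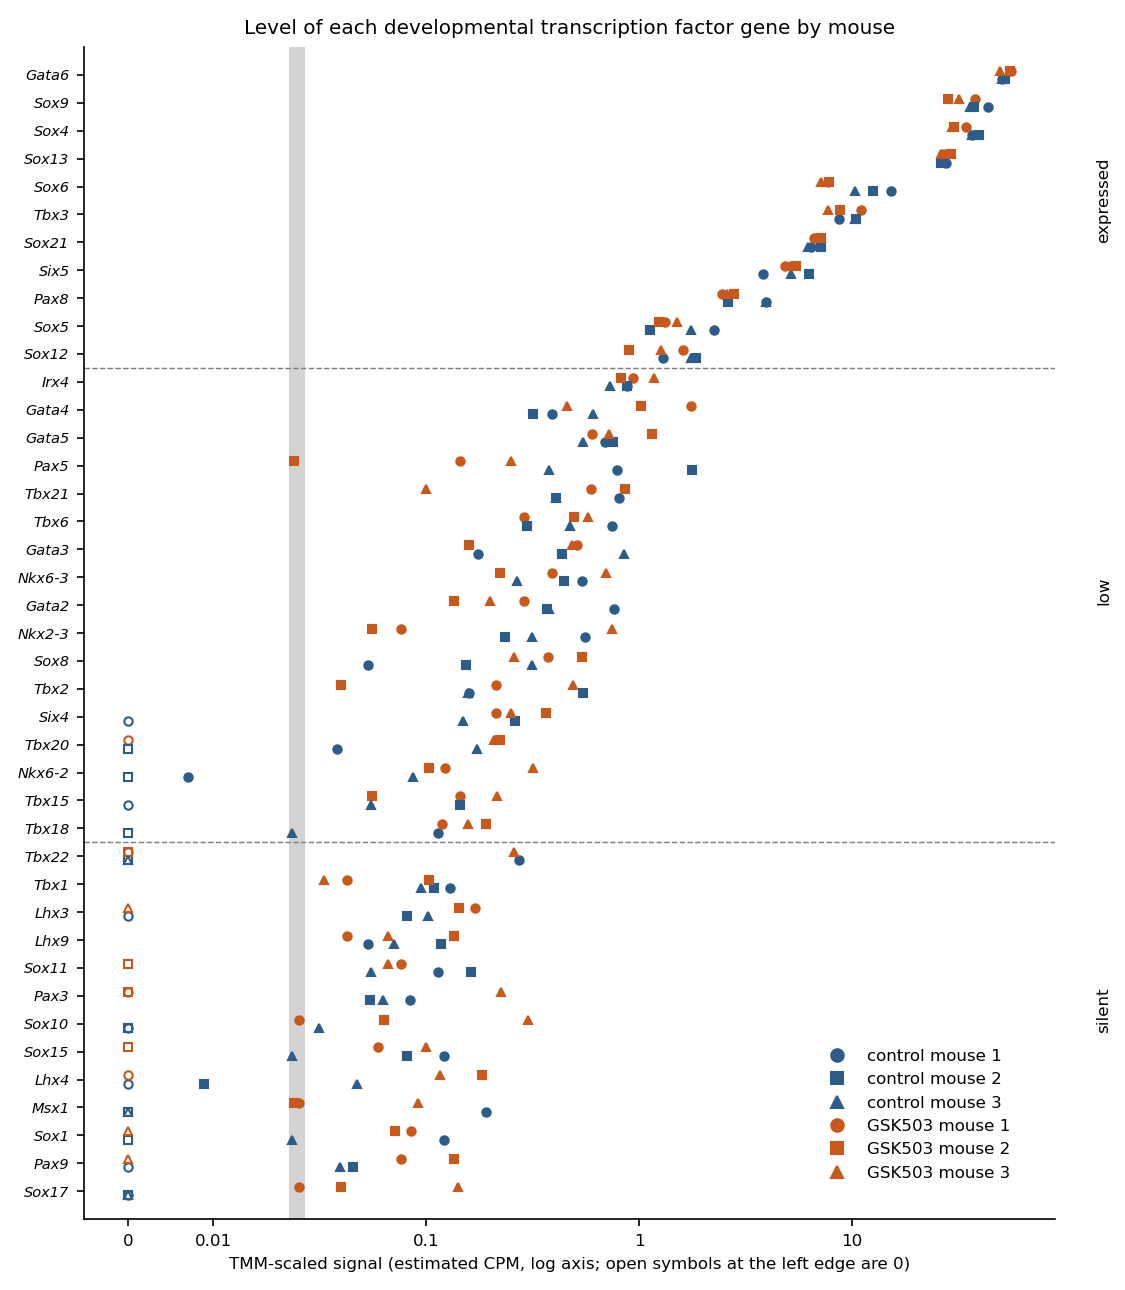
Level of each of the 41 genes (rows, ordered by the mean over 6 mice) in each mouse, as TMM-scaled signal in estimated CPM on a log axis, with values of 0 drawn as open symbols at the left edge. Blue symbols are control mice and orange symbols GSK503-treated mice. The grey band spans the floor of 3 counts (0.0228 to 0.0271 CPM), dashed lines divide 11 expressed, 17 low and 13 silent genes, and 16 genes had a value of 0 in at least 1 library.

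The summed level of the 41 genes was 208, 205 and 196 CPM in control mice 1, 2 and 3 and 198, 184 and 178 CPM in GSK503-treated mice 1, 2 and 3. The ranges of the groups overlapped. Of the sum of the mean levels 76.9% came from the 4 genes with the most counts, *Gata6*, *Sox9*, *Sox4* and *Sox13*, and 96.1% from the 11 expressed genes. The 13 silent genes together gave 1.09, 0.660 and 0.551 CPM in the controls and 0.627, 0.900 and 1.40 CPM in the treated mice, the last value being from GSK503 mouse 3.

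Per kilobase of exon, *Sox9* was the most abundant, at 8.56 CPM per kb (range over 6 mice 6.75 to 10.4). *Sox4* followed at 7.19 CPM per kb (6.15 to 8.25), *Gata6* at 5.67 (5.38 to 6.02) and *Sox13* at 5.17 (4.95 to 5.54). The ranges of *Sox9* and *Sox4* overlapped, as did those of *Gata6* and *Sox13*, whereas those of *Sox4* and *Gata6* did not. *Sox21* (1.78 CPM per kb), *Six5* (1.22), *Tbx3* (1.15), *Sox6* (0.624), *Pax8* (0.422), *Sox12* (0.325) and *Sox5* (0.0988) were lower.

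Developmental factors are known for CpG-rich promoters, and the rule for choosing the genes did not use promoter sequence. In a window of 300 bases (250 before and 50 from the canonical transcript start), the 13 silent genes had a median of 14 CpG dinucleotides, against 5 over all 1149 silent genes with a window. At least 10 CpG were found in 8 of the 13 (61.5%), and in 28.4% of all silent genes. Over all 17212 genes with a window, of any level, the median was also 14 CpG and 63.2% had at least 10. The 13 were thus richer in CpG than other silent genes and near the average gene. The 17 low genes had a median of 15 CpG, against 7 over 3621 low genes. The 11 expressed genes had a median of 13 CpG, against 17 over 12442 expressed genes. These medians are a description, without a test. Among the silent genes *Tbx1*, a T-box factor of the pharyngeal arches, had 53 CpG, *Sox11* 30 and *Msx1*, a homeobox factor of tooth and face, 29, and *Tbx22*, a factor of palate development, had 1.

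**Figure D2:**
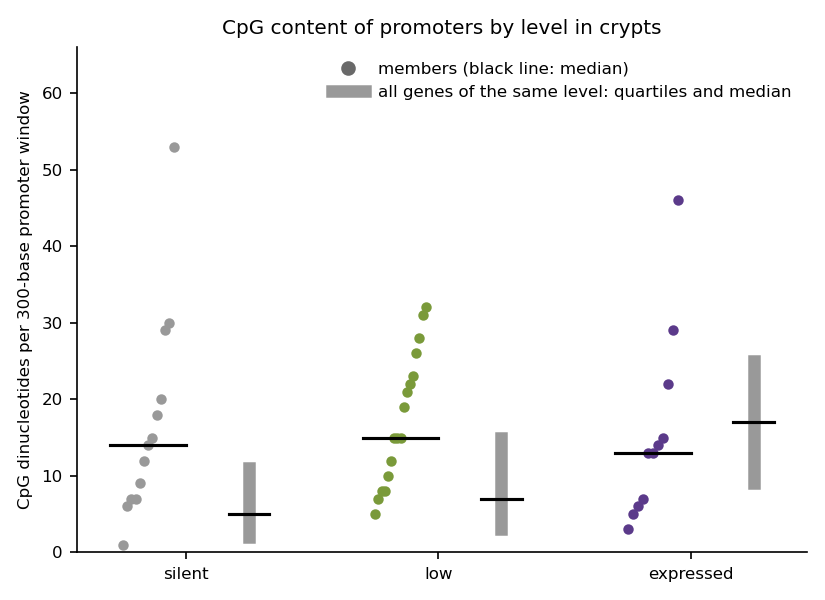
Number of CpG dinucleotides in the promoter window of 300 bases (y axis) for silent, low and expressed genes. Points are the 41 genes with a black line at their median (14, 15 and 13), and grey bars with a black line are the quartiles and median of all genes of the same class (5, 7 and 17).

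The SoxC genes *Sox4*, *Sox11* and *Sox12*, which share a very similar HMG box, show how far CpG content and level were apart. Their mean levels per kilobase were 7.19, 0.00952 and 0.325 CPM, and their windows held 14, 30 and 46 CpG. *Sox6*, the member with the smallest p-value, had 3 CpG at its canonical start, which lies inside a gene that extends further upstream. The 250 bases before the start are shown for these 4 genes, read 5′ to 3′ on the strand of the gene from GRCm39, with each CpG dinucleotide in capitals. They are at chr13:29137697-29137946 (*Sox4*), chr12:27392574-27392823 (*Sox11*), chr2:152239984-152240233 (*Sox12*) and chr7:115445403-115445652 (*Sox6*), all on the minus strand, and hold 13, 21, 36 and 2 CpG.
Sox4: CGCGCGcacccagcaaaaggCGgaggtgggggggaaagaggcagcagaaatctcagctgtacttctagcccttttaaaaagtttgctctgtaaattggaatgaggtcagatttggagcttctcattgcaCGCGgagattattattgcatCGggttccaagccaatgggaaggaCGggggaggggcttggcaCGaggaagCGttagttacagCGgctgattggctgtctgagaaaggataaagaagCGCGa
Sox11: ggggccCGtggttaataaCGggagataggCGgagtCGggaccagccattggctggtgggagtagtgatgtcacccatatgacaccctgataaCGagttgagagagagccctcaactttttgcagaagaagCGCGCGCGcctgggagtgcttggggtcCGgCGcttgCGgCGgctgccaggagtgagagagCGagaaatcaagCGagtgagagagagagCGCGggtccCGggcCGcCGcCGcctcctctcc
Sox12: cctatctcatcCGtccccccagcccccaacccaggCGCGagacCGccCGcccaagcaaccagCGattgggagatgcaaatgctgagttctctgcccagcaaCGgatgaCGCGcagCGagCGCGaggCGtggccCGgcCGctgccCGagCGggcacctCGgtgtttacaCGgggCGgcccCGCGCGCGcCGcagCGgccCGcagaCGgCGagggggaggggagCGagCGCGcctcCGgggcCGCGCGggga
Sox6: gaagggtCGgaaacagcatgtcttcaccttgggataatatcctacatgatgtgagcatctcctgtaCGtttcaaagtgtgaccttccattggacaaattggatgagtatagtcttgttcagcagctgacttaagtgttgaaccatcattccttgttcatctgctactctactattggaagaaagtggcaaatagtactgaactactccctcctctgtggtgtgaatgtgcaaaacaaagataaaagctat

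Across the 41 genes, the number of CpG and the mean level had a Spearman rho of -0.08, which is given as a description across genes that share libraries and families. No methylation or histone data were analysed here.

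The question of the comparison was whether members that the crypts keep off or on differed after EZH2 inhibition. The test was limma on log2(value + 0.1), which understates the change of low genes, with Benjamini-Hochberg (BH) adjustment over all 16670 genes with at least 0.1 CPM in at least 3 mice. Of the 41 genes 30 were tested and 11 silent genes were not. The 30 were kept by their level, and *Nkx6-2* alone reached 0.1 CPM in the treated mice and in no control.

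No tested member had an adjusted p below 0.05 by limma, where 0.642% of all genes tested did, and none did by limma-voom. *Sox6* (3.33% of the 30) had an adjusted p below 0.1, where 1.97% of all genes tested did, 0.558% with a lower and 1.41% with a higher level after GSK503. Unadjusted p-values below 0.05 were found for 3 of 30 members, all lower after GSK503 (*Sox6*, *Sox4* and *Pax5*), against 13.3% of all genes tested, 6.27% lower and 7.06% higher. These shares were near the background. The median log2FC of the 30 members was -0.05, with 14 positive and 16 negative, and that of all genes tested was -0.01, with 51.1% negative.

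Values of the 3 control and 3 treated mice did not overlap for 2 members that were higher after GSK503, *Tbx18* and *Nkx6-2* (6.67%, against 9.84% of all genes tested). *Nkx6-2* passed the filter through the treated mice alone, so that its lack of overlap followed from the filter. Values did not overlap for 4 members that were lower, *Sox6*, *Sox4*, *Pax5* and *Gata2* (13.3%, against 9.22%). Of the 11 expressed members 7 had a negative log2FC, with a median of -0.26. Scaling by library size alone, which moved the median of all genes tested to -0.12, turned *Gata6* (-0.05), *Sox13* (-0.10), *Sox21* (-0.03) and *Six5* (-0.07) negative as well. Of the 17 low members 9 had a positive log2FC, with a median of 0.21. The 28 tested *Hox* genes had a median log2FC of 0.02, and none had an adjusted p below 0.1 by limma. Their lowest adjusted p was 0.130, and 5 had an unadjusted p below 0.05.

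**Figure D3:**
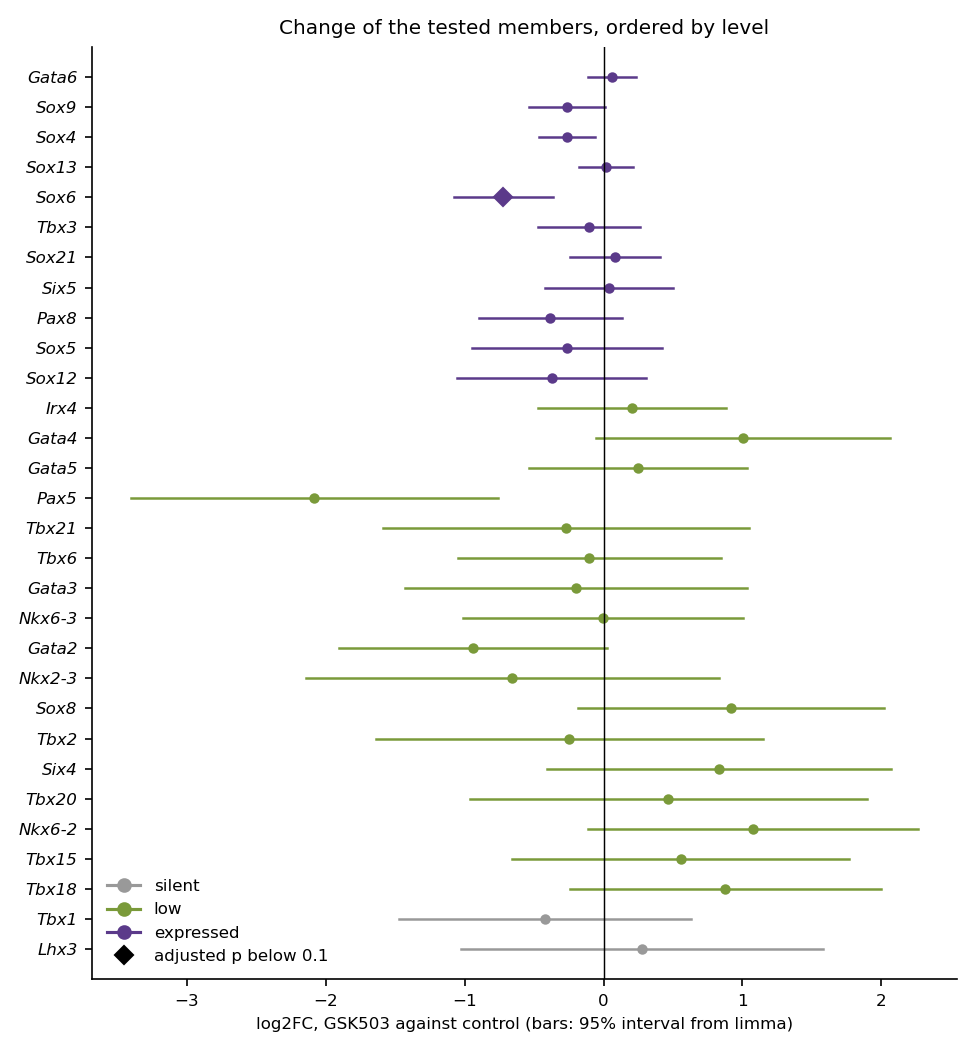
Log2FC of GSK503 against control for the 30 tested genes, ordered by level from top to bottom, with 95% intervals from limma on log2(value + 0.1). *Sox6* (-0.72, diamond) is the gene with an adjusted p below 0.1, and the median width of the intervals is 0.71 for the 11 expressed genes and 2.37 for the 17 low genes.

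The precision of these comparisons followed the level. The 95% interval of the log2FC lay within a 2-fold change in either direction for 9 of 11 expressed members, the exceptions being *Sox6* and *Sox12*. It did so for 1 (*Irx4*) of the 19 tested members that were low or silent. Thus for 18 of the low or silent members tested, a 2-fold change in at least 1 direction was within the interval.

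Sox proteins bind DNA through an HMG box and fall into groups by sequence. The SoxD group, *Sox5*, *Sox6* and *Sox13*, lacks a transactivation domain of its own and acts with partners, best known in cartilage and red blood cells. *Sox6* (ENSMUSG00000051910, chr7:115070106-115638860, minus strand) was at 15.2, 12.6 and 10.3 CPM in control mice 1, 2 and 3 and at 7.72, 7.77 and 7.18 CPM in GSK503-treated mice 1, 2 and 3. All 3 treated mice lay under the lowest control, and the spread between treated mice (SD 0.329) was smaller than that between controls (SD 2.45). The treated mean differed from the control mean by -40.3%, and the log2FC was -0.72 (SE 0.16, 95% interval -1.08 to -0.37, adjusted p = 0.0812 by limma with BH adjustment).

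This call was near the threshold. With limma and BH adjustment, the adjusted p of *Sox6* was 0.194, 0.182 and 0.0699 without control mouse 1, 2 and 3, and 0.185, 0.291 and 0.107 without GSK503 mouse 1, 2 and 3. It was 0.243 without the intensity trend and 0.140 with the replicate number as a block, so that these fits too ended the call. The log2FC kept its sign when a mouse was left out, between -0.86 and -0.58. A gene on the opposite strand, *1110004F10Rik*, shares 228 bp of exon with *Sox6* and was at 34.8 to 40.4 CPM in the controls and 39.1 to 41.2 CPM in the treated mice (log2FC 0.10, adjusted p = 0.656 by limma). The library kit keeps the strand, but whether the counting used it is not given in the sources used here.

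The other SoxD genes did not show this difference. *Sox13*, known from T cells of the γδ lineage, was at 27.7, 26.2 and 26.98 CPM in the controls and at 26.8, 29.1 and 26.0 CPM in the treated mice (log2FC 0.02, 95% interval -0.18 to 0.21, adjusted p = 0.956 by limma). *Sox5* was at 2.25, 1.12 and 1.75 CPM in the controls and at 1.33, 1.24 and 1.51 CPM in the treated mice (log2FC -0.26, 95% interval -0.95 to 0.42, adjusted p = 0.767 by limma). The groups overlapped for both genes, and whether the log2FC of *Sox6* differed from theirs was not tested. Within each library, the ratio of *Sox6* to *Sox13* signal was 0.547, 0.479 and 0.381 in the controls and 0.288, 0.267 and 0.276 in the treated mice, without overlap. The ratio of *Sox6* to *Sox5* was 6.75, 11.2 and 5.86 in the controls and 5.80, 6.26 and 4.77 in the treated mice, and overlapped.

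SOX4, of the SoxC group, is known in the gut from progenitors and secretory cells. *Sox4* (ENSMUSG00000076431, chr13:29132902-29137696, minus strand) was at 36.4, 39.6 and 36.8 CPM in the controls and at 34.4, 30.2 and 29.5 CPM in the treated mice. The groups did not overlap, with the highest treated mouse close to the lowest control. The log2FC was -0.26 (SE 0.09, 95% interval -0.47 to -0.06, adjusted p = 0.2496 by limma), which did not pass after adjustment. It shares 907 bp of exon with *A330102I10Rik* on the opposite strand, which was at most 0.228 CPM.

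*Sox12*, its SoxC relative, was at 1.29, 1.85 and 1.76 CPM in the controls and at 1.61, 0.900 and 1.26 CPM in the treated mice (log2FC -0.37, 95% interval -1.05 to 0.31, adjusted p = 0.641 by limma). The third SoxC gene, *Sox11*, known from developing neurons, was silent at 0 to 0.163 CPM.

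SOX9, of the SoxE group, marks the stem and progenitor compartment of the crypt and is needed for Paneth cells. *Sox9* (ENSMUSG00000000567, chr11:112673009-112678586, plus strand) was at 43.6, 37.3 and 35.8 CPM in the controls and at 37.8, 28.2 and 31.7 CPM in the treated mice. The groups overlapped through GSK503 mouse 1, and the log2FC was -0.26 (SE 0.12, 95% interval -0.54 to 0.01, adjusted p = 0.404 by limma). Its ratio to *Sox4* within a library lay between 0.943 and 1.20 in the controls and between 0.934 and 1.10 in the treated mice. The other SoxE genes act in neural crest and glia. *Sox8* was low, at 0.0533 to 0.315 CPM in the controls and 0.258 to 0.542 CPM in the treated mice (log2FC 0.92, adjusted p = 0.471 by limma), and *Sox10*, a defining marker of enteric glia, was silent.

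*Sox21*, a SoxB factor known from neural progenitors, was at 6.38, 7.16 and 6.19 CPM in the controls and at 6.60, 7.12 and 7.13 CPM in the treated mice (log2FC 0.08, 95% interval -0.24 to 0.40, adjusted p = 0.863 by limma). The difference was smaller than the spread between the controls.

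**Figure D4:**
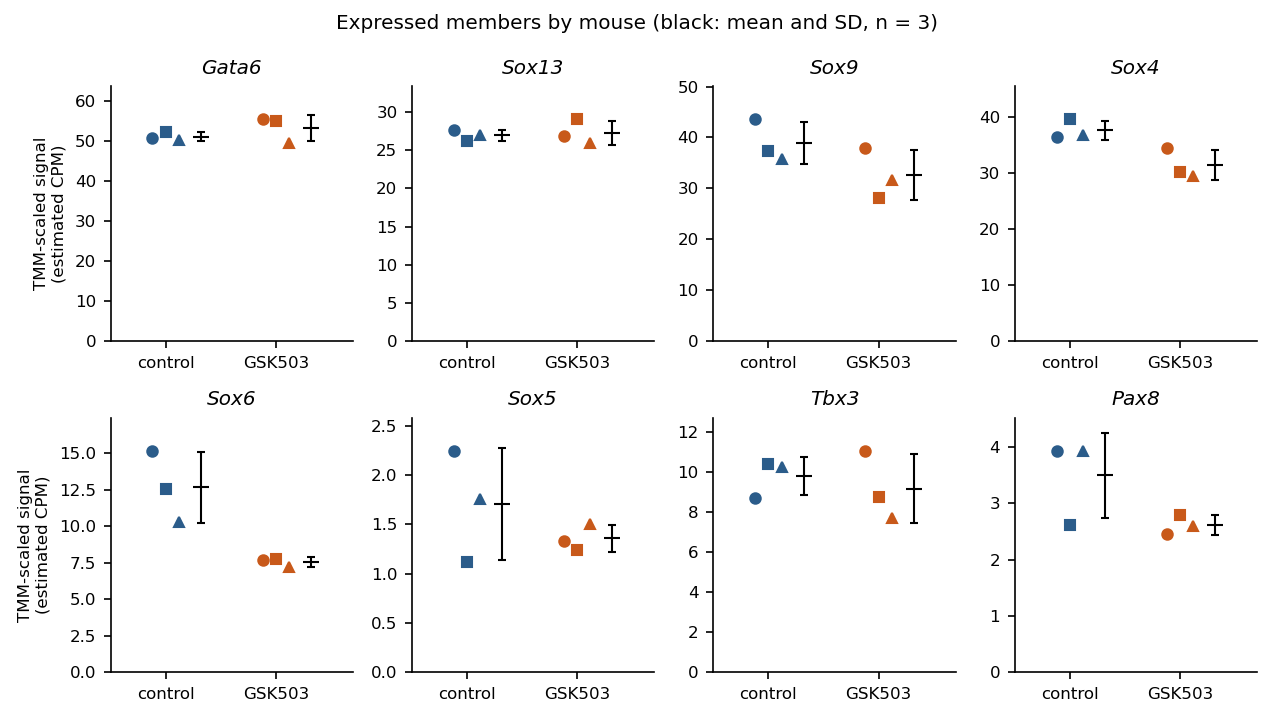
Level in each mouse of 8 of the 11 expressed genes, as TMM-scaled signal in estimated CPM with the y axis from 0, for control (blue) and GSK503-treated mice (orange), circles, squares and triangles being mice 1, 2 and 3. Black bars are the mean and SD of 3 mice. The treated mice lie under all controls for *Sox6* (7.18 to 7.77 against 10.3 to 15.2) and *Sox4* (29.5 to 34.4 against 36.4 to 39.6), and the groups overlap in the other 6 panels.

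GATA factors bind through zinc fingers. GATA4, GATA5 and GATA6 act in endoderm and heart, GATA4 being known for the identity of the proximal small intestine. *Gata6* was at 50.8, 52.4 and 50.3 CPM in the controls and at 55.5, 55.1 and 49.6 CPM in the treated mice. GSK503 mouse 3 was the lowest and the other treated mice the highest, and the log2FC was 0.06 (SE 0.08, 95% interval -0.11 to 0.23, adjusted p = 0.791 by limma). It shares 1154 bp of exon with *Gata6os* on the opposite strand, which was between 2.14 and 3.71 CPM.

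*Gata4* (ENSMUSG00000021944, chr14:63436362-63509141, minus strand), singled out after its values were seen, was at 0.388, 0.317 and 0.606 CPM in the controls and at 1.75, 1.02 and 0.458 CPM in the treated mice. GSK503 mice 1 and 2 were above all controls, and GSK503 mouse 3 lay among them. The log2FC was 1.0 (SE 0.47, 95% interval -0.06 to 2.06, adjusted p = 0.405 by limma), which did not pass. It was 1.46 without GSK503 mouse 3, the highest of the fits that left out 1 mouse, and 0.59 at the lowest of these. *Gata5* was at 0.543 to 0.751 CPM in the controls and at 0.602 to 1.16 CPM in the treated mice, with overlap.

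Several low members belong to cell types other than epithelium, and in bulk samples fewer cells of a type and less RNA per cell cannot be told apart. PAX5 sets and keeps the identity of B cells. *Pax5* (ENSMUSG00000014030, chr4:44524757-44710487, minus strand) was at 0.792, 1.78 and 0.378 CPM in the controls and at 0.144, 0.0239 and 0.250 CPM in the treated mice. All 3 treated mice were under the lowest control, with a log2FC of -2.08 (SE 0.59, 95% interval -3.40 to -0.76, adjusted p = 0.158 by limma).

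B cell markers followed *Pax5* in part, with GSK503 mouse 3 as an exception. Summed over 6 markers, they were at 33.4, 74.99 and 22.0 CPM in the controls and at 3.66, 1.95 and 61.4 CPM in the treated mice, and 6 of 6 had a lower mean after GSK503. In GSK503 mouse 3 most of the sum was *Jchain*, a marker of plasma cells (57.9 CPM), while *Ms4a1*, a marker of mature B cells, was at 0.0915 CPM. *Jchain* was also most of the sum in the controls (23.6, 48.6 and 18.2 CPM). *Cd79a* (0.458 CPM) and *Ighm* (2.40 CPM) in GSK503 mouse 3 lay above control mouse 3 (0.393 and 1.93 CPM). Of the 6 markers 2, *Ms4a1* and *Cd79b*, were lower without overlap, against 9.22% of all genes tested. *Ms4a1* was at 0.449 to 3.21 CPM in the controls and at 0.0637 to 0.195 CPM in the treated mice (adjusted p = 0.0875 by limma, the lowest of the 6 markers). A negative log2FC of all 6 markers was not particular to B cells, as it was found for all 6 smooth muscle, all 6 endothelial and all 6 macrophage markers. By contrast, 5 of 6 epithelial and 3 of 3 tested enteric glia markers had a positive log2FC. The part of B cell content in the *Pax5* values was not tested.

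GATA2 acts in mast cells and blood progenitors. *Gata2* was at 0.371 to 0.761 CPM in the controls and at 0.135 to 0.288 CPM in the treated mice, without overlap (log2FC -0.94, SE 0.43, 95% interval -1.90 to 0.02, adjusted p = 0.387 by limma). The 5 mast cell markers summed to between 56.2 and 81.6 CPM in the controls and between 69.2 and 91.2 CPM in the treated mice, with overlap, and 3 of the 5 had a lower and 2 a higher mean after GSK503. The part of mast cell content in the *Gata2* values was not tested.

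*Gata3* and *Tbx21* (T-bet), which direct T helper cells and innate lymphoid cells, overlapped between the groups. *Gata3* was at 0.175 to 0.850 CPM in the controls and at 0.159 to 0.509 CPM in the treated mice, and *Tbx21* at 0.407 to 0.807 CPM and 0.0998 to 0.860 CPM. The 7 T cell markers summed to between 11.9 and 18.5 CPM in the controls and between 11.1 and 14.0 CPM in the treated mice. *Nkx2-3*, a homeobox factor of gut mesenchyme and its vessels, was at 0.235 to 0.556 CPM in the controls, at 0.0763 and 0.0558 CPM in GSK503 mice 1 and 2 and at 0.749 CPM in GSK503 mouse 3. The 6 smooth muscle markers were at 20.9, 90.1 and 46.2 CPM in the controls and at 4.52, 4.26 and 122 CPM in the treated mice. The lowest sums and the highest sum were thus in the mice with the lowest and highest *Nkx2-3*, all of them treated. In the 3 controls the order was reversed, with *Nkx2-3* at 0.556, 0.235 and 0.315 CPM in control mice 1, 2 and 3.

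**Figure D5:**
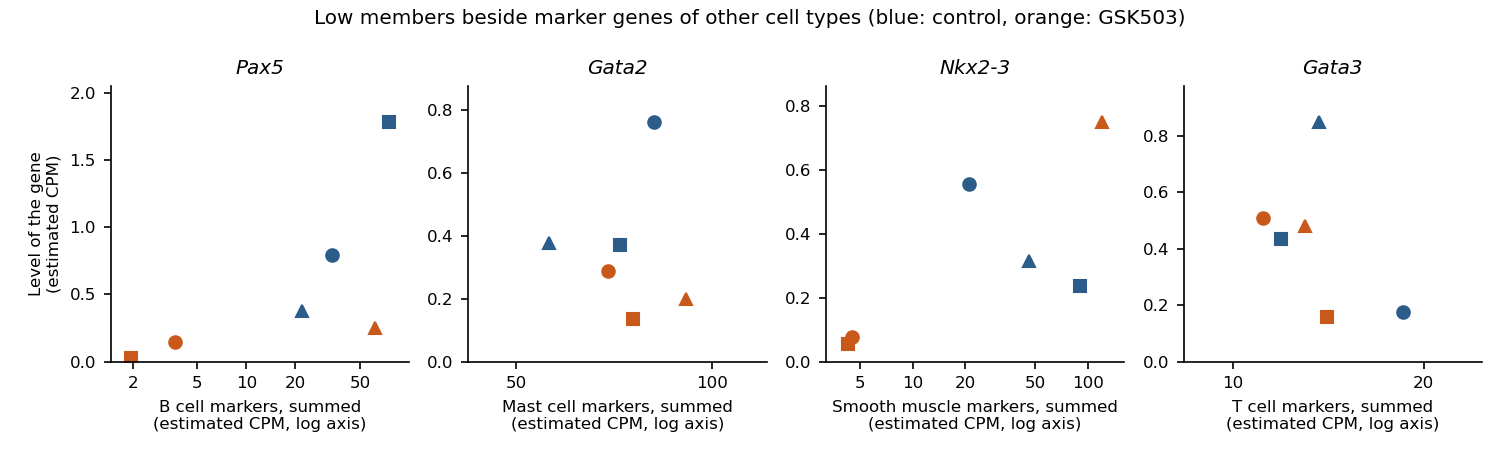
Level of *Pax5*, *Gata2*, *Nkx2-3* and *Gata3* in each mouse (y axis, estimated CPM) against the summed markers of B cells, mast cells, smooth muscle and T cells (x axis, estimated CPM, log axis), for control (blue) and GSK503-treated mice (orange), circles, squares and triangles being mice 1, 2 and 3. GSK503 mouse 3 (orange triangle) has the highest smooth muscle sum (122) with the highest *Nkx2-3* (0.749), and a high B cell sum (61.4) with a *Pax5* of 0.250.

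T-box factors bind DNA through the T-box and act in mesoderm, limb and heart. *Tbx3*, a repressor and the only expressed member of the family, was at 8.69, 10.4 and 10.3 CPM in the controls and at 11.1, 8.76 and 7.71 CPM in the treated mice. Of the treated mice 1 was above all controls and 1 was below (log2FC -0.10, 95% interval -0.47 to 0.26, adjusted p = 0.835 by limma). *Tbx18*, known from smooth muscle progenitors, was at 0 to 0.114 CPM in the controls and at 0.119 to 0.191 CPM in the treated mice, without overlap (log2FC 0.88, adjusted p = 0.496 by limma). The highest control had 15 estimated counts and the lowest treated mouse 14, so that this separation depended on the scaling. *Tbx2*, *Tbx6*, *Tbx15* and *Tbx20* were low, at 0 to 0.746 CPM over the 6 mice, and overlapped between the groups.

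*Pax8*, a paired box factor of thyroid and kidney, was at 3.93, 2.61 and 3.93 CPM in the controls and at 2.45, 2.80 and 2.59 CPM in the treated mice. Control mouse 2 lay among the treated mice, and the log2FC was -0.38 (95% interval -0.90 to 0.13, adjusted p = 0.515 by limma). *Six5*, a homeobox factor expressed in many tissues, was at 3.81, 6.25 and 5.18 CPM in the controls and at 4.82, 5.46 and 5.10 CPM in the treated mice (log2FC 0.04, 95% interval -0.42 to 0.50, adjusted p = 0.958 by limma). *Six4* was low, at 0 to 0.262 CPM and 0.212 to 0.366 CPM.

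The remaining low genes were homeobox factors. *Irx4*, known from heart ventricle, was at 0.732 to 0.877 CPM in the controls and at 0.820 to 1.18 CPM in the treated mice, and *Nkx6-3*, known from the stomach antrum, at 0.268 to 0.540 CPM and 0.223 to 0.699 CPM. *Nkx6-2*, a factor of neural tube and oligodendrocytes, was at 0 to 0.0867 CPM in the controls and at 0.104 to 0.316 CPM in the treated mice (log2FC 1.08, 95% interval -0.11 to 2.26, adjusted p = 0.428 by limma). The highest *Nkx6-2* value was in GSK503 mouse 3, and the gene shares 246 bp of exon with *Inpp5a* on the opposite strand, which was at 19.1 to 23.9 CPM.

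The 13 silent genes stayed at the edge of detection in both groups. They were *Pax3* and *Pax9* (neural crest and muscle, pharyngeal pouches), *Lhx3*, *Lhx4* and *Lhx9* (pituitary and gonad), *Msx1*, *Sox1*, *Sox10*, *Sox11*, *Sox15*, *Sox17*, *Tbx1* and *Tbx22*. Of their 78 values 23 were 0 and 30 were under the floor of 3 counts, and 11 of the 13 genes were at 0 in at least 1 library. The highest single value was 0.300 CPM, 36 estimated counts of *Sox10* in GSK503 mouse 3. No expressed member was at 0 in any library, and the lowest estimated count of an expressed member was 113. The silent class cannot show whether genes that were off in the controls stayed off, as a gene much higher after GSK503 would leave it. *Nkx6-2*, *Tbx15*, *Tbx18* and *Tbx20* had control means under 0.1 CPM and treated means above it, and were classed as low. No low gene had the reverse, but the silent genes went both ways. *Sox11* (0.111 and 0.0476 CPM) and *Tbx1* (0.111 and 0.0597 CPM) had control means above 0.1 CPM and treated means under it. *Lhx3* (0.0612 and 0.104 CPM) and *Sox10* (0.0105 and 0.130 CPM) had the opposite. Such crossings were not counted over all genes.

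*Lhx3* and *Tbx1* were the silent genes that passed the filter, with a log2FC of 0.28 and -0.42 (adjusted p = 0.886 and 0.751 by limma). *Tbx22*, the X-linked member, was at 0.274 CPM in control mouse 1, at 0.258 CPM in GSK503 mouse 3 and at 0 in the other 4 mice. No silent gene was at 0 in all mice of one group and at 0.1 CPM or more in all mice of the other.

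*Sox17*, a factor of endoderm and endothelium that was singled out after its values were seen, came nearest to this. It was at 0 in all 3 controls and at 0.0254, 0.0398 and 0.141 CPM in GSK503 mice 1, 2 and 3, or 3, 5 and 17 estimated counts. The treated mean was 2.81 times the mean floor of 3 counts in the control libraries, which is not a lower bound of a change. GSK503 mouse 1 was at the floor itself, and the gene was not tested. Most *Sox17* counts were in GSK503 mouse 3, where the 6 endothelial markers summed to 9.29 CPM. Their sum was 3.68 to 6.10 CPM in the controls and 2.20 and 2.09 CPM in GSK503 mice 1 and 2. The part of endothelial cells in the *Sox17* counts was not tested.

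*Sox10* had a similar spread. It was at 0, 0 and 0.0315 CPM in the controls and at 0.0254, 0.0637 and 0.300 CPM in the treated mice. The 4 enteric glia markers, *Sox10* among them, summed to 0.748 to 1.45 CPM in the controls and to 1.39, 1.15 and 2.45 CPM in GSK503 mice 1, 2 and 3. Without GSK503 mouse 3, 17 of the 41 genes were silent, 13 were low and the same number of 11 was expressed.

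Components of the Polycomb machinery were measured in the same libraries. Of 13 PRC2 subunits and partners, 2 had a higher and 11 a lower level after GSK503, with a median log2FC of -0.08, and none had an adjusted p below 0.1 by limma. Their lowest adjusted p was 0.136 (*Suz12*, log2FC -0.39), and 4 had an unadjusted p below 0.05, all lower, against 6.27% of all genes tested (51.1% of which had a negative log2FC). *Ezh2* itself, which GSK503 inhibits as a protein, was at 46.7, 37.4 and 46.5 CPM in the controls and at 36.6, 35.2 and 36.3 CPM in the treated mice. The groups did not overlap, and the difference did not pass after adjustment (unadjusted p = 0.0247, adjusted p = 0.291 by limma). Of 15 PRC1 subunits 5 were higher and 10 lower, with a median log2FC of -0.06 and a lowest adjusted p of 0.250 by limma. Lower without overlap were 5 of the 13 PRC2 and 2 of the 15 PRC1 genes, against 9.22% of all genes tested. Of 2 H3K27 demethylases, *Kdm6b* overlapped between the groups (log2FC 0.10, adjusted p = 0.798 by limma). *Kdm6a* was higher after GSK503 (log2FC 0.76, adjusted p = 0.0157 by limma). This gene is X-linked and escapes X inactivation, so that here too treatment and sex cannot be told apart.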

How the data were processed

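Groups and mouse numbers of the 6 total RNA-Seq libraries, 1 from the crypts of each mouse, were taken from the sample labels. Per the submitters' processing notes and the paper, the authors aligned paired-end reads of 76 bp to GRCm39 with STAR, estimated counts with RSEM and applied TMM normalization. The deposited signal is an estimated CPM of the TMM-scaled library, made by the authors. Of the values under 100 counts, between 85.6% and 87.4% were whole multiples of the library's step (within 0.02), so the values are not raw counts. The step gave the estimated totals, and the floors cover counting error only. The intervals of the log2FC are from limma and reflect the variation between mice within the groups.

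Groups were compared with limma (version 3.58.1, R 4.3.3) on log2(value + 0.1) with an intensity trend, over genes with at least 0.1 in at least 3 of 6 mice, with BH adjustment. An exact permutation test (two-sided) of 3 mice against 3 goes no lower than p = 0.1 and was not run. The genes and the lists were chosen with earlier results of these data known. Values in every mouse were given for genes with a mean of at least 1, an adjusted p below 0.1 or an unadjusted p below 0.05, and for genes at 0 in one group and at least 0.1 in the other. *Gata4*, *Sox17*, *Sox10* and *Tbx22* were added after their values were seen.

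Positions, exon lengths and starts are from GENCODE M39 on GRCm39. Of the symbols, 95.4% matched a single gene, and all 41 members did. On simulated data for this comparison with 16468 genes, limma at an adjusted p below 0.05 called 81 of 109 genes changed by a log2 fold of 1. It called 84 of 91 changed by a log2 fold of 2, all in the right direction, with 4 false calls. The changed genes were drawn at all levels, with a spread set by level alone and no mouse set apart. These shares therefore do not give the power for the low and silent members. Alternatives were other scalings, filters, pseudocounts, variance models, a replicate block, other class bounds and leaving out each mouse. Pearson's r between libraries lay between 0.976 and 0.990. Python 3.11.15, numpy 2.4.6, pandas 2.3.3 and matplotlib 3.10.9 were used. The name of the conditionally deleted gene is not reported here.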

Additional observations from a re-analysis of the deposited data

How the results depend on the processing

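The number of members with an adjusted p below 0.1 by limma was 1 (*Sox6*). It was 3 when the signal was scaled by library size alone (*Sox6*, *Sox4* and *Pax5*, adjusted p 0.0408, 0.0692 and 0.0917), which moved the median log2FC of all genes tested from -0.01 to -0.12, and 1 of the members was then below 0.05. It was 0 without the intensity trend and 0 with the replicate number as a block, and 0 to 1 when a mouse was left out. The cause was not tested. Replicate numbers did not pair the mice, as deviations of same-numbered mice had an r of 0.0322, -0.126 and -0.119, and with the replicate block the adjusted p of *Sox6* was 0.140. The median log2FC of the members (-0.05) was -0.15 with library size alone (all genes -0.12), -0.0053 without a filter and -0.26 with a filter at a mean of 1, which keeps the expressed members, and lay between -0.025 and 0.0276 when a mouse was left out. The number of silent members fell from 13 to 2 with class bounds of 0.05 and 0.5 CPM, and was 14 with library size alone, an alternative chosen after seeing the data. Of 193 recomputed log2FC of 14 named members 175 kept their direction and side of the threshold, 7 (*Sox6*) lost the call at 0.1, 2 (*Sox4* and *Pax5* with library size alone) passed it and 9 changed sign without a call. With library size alone these were *Gata6* (-0.054), *Six5* (-0.072), *Sox13* (-0.097) and *Sox21* (-0.032). When a mouse was left out, the log2FC lay between -0.15 and 0.20 for *Six5*, between -0.0286 and 0.0512 for *Sox13* and between -0.245 and 0.0124 for *Tbx3*. Of the 30 tested members 19 kept the sign of their log2FC in all alternatives run. Low counts limit the silent and low members, and adjusted p-values of *Sox6* over all 14 alternatives lay between 0.0408 and 0.291.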
